A study of Mus musculus with 80 samples.

Results

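Regions of normal-looking muscle fibre in the tibialis anterior of P301L tau mice were compared with the same kind of region in control mice. The 20 regions labelled normal, of 80 regions in the series, were taken by that label: 9 regions from 6 tau animals and 11 regions from 6 control animals. All animals are labelled as C57Bl/6 mice of WT genotype, and the treatment label reads tauopathy or control. The name of the deposited data set carries the term AAV8, a viral vector, but the labels do not say how tau was delivered. Whether controls received a vector, the promoter used, how regions were picked and how old the animals were are not stated in the labels or files used. An effect of delivery and an effect of tau itself therefore cannot be told apart. Frozen cross sections were profiled with the NanoString GeoMx mouse whole transcriptome panel, in which tagged probes bound to RNA in a chosen area are released by light and counted. The other 60 regions cover fibres with central nuclei, nerve bundles and tissue surrounding an artery. Each of 3 slides held 2 tau and 2 control animals. On the labelled sex, 4 tau animals are female and 2 male, and 3 control animals are female and 3 male, while the series' design text gives 3 animals per sex and treatment.

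Tau is a microtubule-binding protein best known from neurons, and the P301L change makes it more prone to aggregate. The mouse tibialis anterior is a fast muscle that lifts the foot. Its fibres differ in the myosin heavy chain they contain: Myh4 marks the fastest, most glycolytic fibres, Myh1 and Myh2 mark fast fibres with more mitochondria, and Myh7 marks slow fibres, which are sparse in this muscle. Fibre type sets the speed of the sarcomere, the calcium release apparatus and the balance between glycolysis and oxidation.

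Values are the depositors' signal scaled to the third quartile of each region. A level is the mean over the regions of an animal, and a difference is tau minus control on the log2(value + 1) scale with slide as a covariate. The total count per region had a lowest, median and highest of 520485, 1369903 and 2943382 in tau regions, against 312262, 744212 and 2502999 in control regions. On a log2 scale the totals averaged 20.52 ± 0.86 in tau animals and 19.51 ± 0.95 in control animals (SD, n = 6 each). Tau animals were deeper by 1.01 on average, and by 1.03, 0.91 and 1.09 on the 3 slides, with an exact two-sided permutation p of 0.00926 within slides, the smallest this design allows. The third-quartile count per region had a lowest, median and highest of 31, 97 and 262 in tau regions, against 19, 52 and 230 in control regions. Its lowest animal averages were 19 and 28, in C30 and C2, the control animals of slide 1. Differences on slide 1 therefore rest on controls read at low counts. The negative probe, the background reading, averaged 5.21 ± 0.41 in tau animals and 5.05 ± 0.38 in control animals on the log2 scale, an average difference of 0.15 (exact permutation p = 0.111). Where a median printed for a gene list changed sign with the total count or the negative probe as a covariate, with the negative probe subtracted or after quantile normalisation, that median is given beside it. In such regions, fewer cells of a type and less RNA per cell cannot be told apart.

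No gene passed the test between tau and control normal regions. Of 10188 genes tested with limma and adjusted by Benjamini-Hochberg, 0 were called at an adjusted p of 0.05, which is 0%. The lowest adjusted p was 0.0757, for Sorbs2. At an unadjusted p under 0.05, 937 genes were higher (9.2%) and 448 lower (4.4%) in tau animals, 1385 in all (13.6%). The median difference over all genes was 0.06, and 65.5% of genes had a difference above 0. The median standard error of a gene was 0.122, and the median half-width of its 95% interval was 0.255, a 1.19-fold change. The median absolute log2 difference between 2 regions of the same animal, over the 8 animals with 2 regions, was 0.267.

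Other ways of fitting the same animals gave small sets of called genes, most of them lower in tau. The labelled sex was left out of the reported fit because it went against Y-linked genes in control animals, as given below. Fits that use it, here and for single genes, carry that limit. With the labelled sex added as a covariate, limma called 5 genes higher and 46 lower (0.501%). With 1 animal also left out, that total of 51 ran between 3 (without control animal C2) and 95 (without tau animal T7). With regions as the unit and the animal as a random effect it called 4 higher and 28 lower (0.314%). The correlation it estimated between regions of an animal was -0.0171, so it took the 20 regions as nearly independent. With animal means weighted by their number of regions, limma called 0 genes, with a lowest adjusted p of 0.0994. With precision weights on counts recovered from the scaled values it called 1 higher and 23 lower (0.236%). A total of 18 genes were called in the fits with labelled sex, with the random effect and on recovered counts, 17 of them lower in tau. They make up 35.3%, 56.2% and 75% of the 3 sets of called genes. The count also moved when single animals were left out. Without tau animal T7 limma called 2 genes higher and 21 lower, without tau animal T14 it called 8 higher and 1 lower, and without control animal C40 it called 1 lower. The 8 higher without T14, named after their values were seen, were Myh1, Fhl1, a LIM-domain protein, and the mitochondrial subunits Atp5g1, Uqcrq, Cox7c, Ndufb9, Ndufb5 and Cox8b. Leaving out each of the other 9 animals gave 0 calls. With the total count as a covariate the count was 0, with 62 genes higher and 196 lower at an unadjusted p under 0.05 and a lowest adjusted p of 0.948. With the negative probe as a covariate it was also 0, with 499 higher and 385 lower and a lowest adjusted p of 0.419.

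Mylk4, a kinase related to the myosin light chain kinases, had the lowest difference of the 10188 genes tested. Its level had a lowest, median and highest of 309, 609 and 1906 in tau animals, against 597, 1648 and 2872 in control animals. On each slide both tau animals lay below both control animals, although the ranges overlap across slides. The difference was -1.08 ± 0.229 (SE), with slide differences of -0.67, -0.92 and -1.66, and did not pass (limma adjusted p = 0.113). Adding the labelled sex gave a limma adjusted p of 0.00867 and the random-effect fit 0.0126. Across 35 alternatives the adjusted p ran between 0.00867 and 0.999, and the difference between -1.46 and -0.79. The 35 alternatives counted for genes and lists hold no fit with labelled sex added and 1 animal left out. The gene lies on chromosome 13 at 32700824 to 32806773 (GRCm38.p6) and read 27.4 times the negative probe.

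Fhl3, a LIM-domain protein of muscle, had levels of 101, 383 and 596 in tau animals (lowest, median, highest), against 149, 566 and 961 in control animals. Both tau animals were below both controls on every slide, by -0.53, -0.66 and -0.57. The overall difference of -0.59 ± 0.152 did not pass (limma adjusted p = 0.168).

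Myl2, the slow and cardiac regulatory myosin light chain, differed in the other direction. Its levels were 34.9, 45.9 and 149 in tau animals, against 18.4, 28.5 and 43.1 in control animals. Every tau animal was above the control median, and both tau animals lay above both controls on each slide, though the ranges overlap. The difference of 0.72 ± 0.179 did not pass (limma adjusted p = 0.143). It was 0.73, 0.14 and 1.29 on the 3 slides, and its level was 1.07 times the negative probe, at the edge of detection.

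Utrn encodes utrophin, the relative of dystrophin found at the neuromuscular junction and on regenerating fibres. Its levels were 41.9, 47.5 and 55.1 in tau animals, against 29.7, 36.4 and 44.5 in control animals. Tau animals were above the control median in 6 of 6 cases, and the ranges overlap slightly. The difference of 0.47 ± 0.128 did not pass (limma adjusted p = 0.171), and Utrn read 1.15 times the negative probe.

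**Figure D1:**
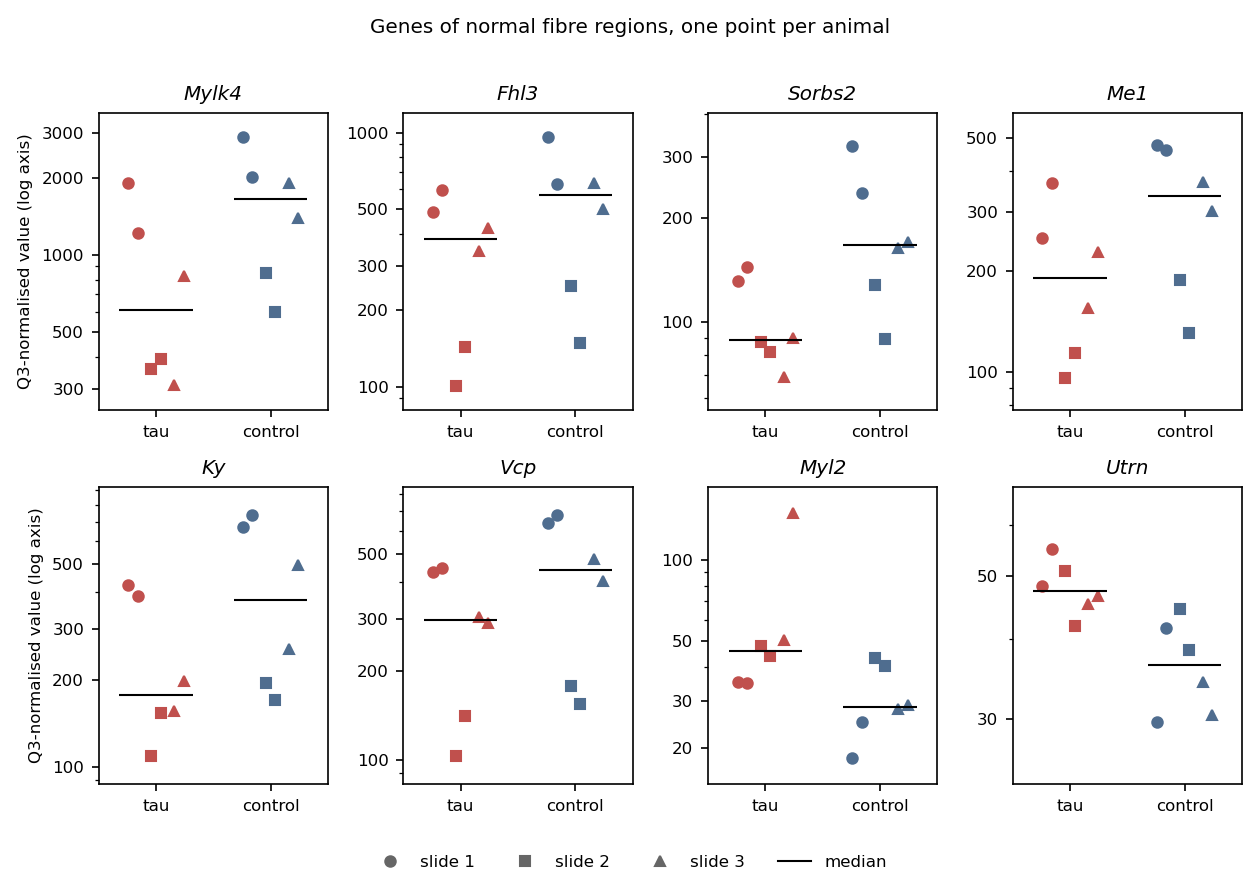
Signal scaled to the third quartile (log axis) of 8 genes in the normal regions, 1 point per animal, tau left and control right. Colour shows the treatment and marker shape the slide. For Mylk4, Fhl3, Sorbs2, Me1, Ky and Vcp the tau animals of a slide lie below the control animals of that slide, and for Myl2 they lie above, while the slides themselves differ in level.

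The start regions of Mylk4 and Myl2 are shown because these genes had the widest differences of the 4 markers in each direction. They are RefSeq sequences on GRCm38.p6, from 250 bases before to 50 bases after the start, and capitals mark the E-box CAGCTG, the letters bound by MyoD-family factors. For Mylk4 this is the minus strand of chr13:32783915-32784214, and for Myl2 the plus strand of chr5:122092939-122093238. The Mylk4 window lies inside the gene's span of 32700824 to 32806773, away from its outer end. For Myl2, 2 starts were listed, and the window nearest the gene's outer end is shown. Motif counts hold for these windows alone.
Mylk4: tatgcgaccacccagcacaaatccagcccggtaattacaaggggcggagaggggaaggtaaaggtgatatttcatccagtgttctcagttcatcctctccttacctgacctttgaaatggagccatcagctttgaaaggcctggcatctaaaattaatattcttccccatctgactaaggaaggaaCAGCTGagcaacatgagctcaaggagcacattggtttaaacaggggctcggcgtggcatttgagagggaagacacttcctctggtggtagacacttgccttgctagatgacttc
Myl2: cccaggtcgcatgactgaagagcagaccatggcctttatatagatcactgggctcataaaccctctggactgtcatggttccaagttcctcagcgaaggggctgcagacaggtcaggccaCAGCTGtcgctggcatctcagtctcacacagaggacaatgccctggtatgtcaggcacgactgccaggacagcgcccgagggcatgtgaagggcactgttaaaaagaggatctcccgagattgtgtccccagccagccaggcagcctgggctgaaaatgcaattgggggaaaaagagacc
Each window holds 1 CAGCTG, which reads alike on both strands. The windows of Fhl3 and Utrn hold none, and none of the 4 holds CATTCC, the MCAT motif, on either strand. Of 32544 mouse promoters of this length, 16.4% hold CAGCTG and 14.6% hold CATTCC. A match is a description of the letters and was not tested against binding.

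The 12 genes with the smallest p were taken after their values were seen; 9 were lower and 3 higher in tau animals. In each of the 12, both tau animals of every slide lay on the same side of both controls of that slide. Over all genes tested, 149 (1.46%) lay below in this way and 211 (2.07%) above. No gene had all 6 tau animals below all 6 controls (0%), and 8 (0.0785%) had all 6 above.

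Sorbs2, an adaptor protein of the Z-disc, had levels of 69.3, 88.6 and 144 in tau animals (lowest, median, highest), against 89.1, 167 and 324 in control animals. All 6 tau animals were below the control median, and the difference was -0.83 ± 0.138 (limma adjusted p = 0.0757). Sorbs2 was called in 10 of 35 alternatives, with adjusted p between 0.00212 and 0.999. Without slide 2 the difference was -1.08 and the limma adjusted p 0.00212. Without control animal C40 it was -0.96, and without tau animals T14 and T7, each left out alone, it was -0.90 and -0.88. Those fits passed. Without each of the other animals the difference ran between -0.86 and -0.75 and did not pass (limma adjusted p between 0.144 and 0.42). Without slide 1 and without slide 3 it was -0.73 and -0.68 (limma adjusted p = 0.477 and 0.694).

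Me1, cytosolic malic enzyme, which makes NADPH for lipid synthesis, had levels of 96.3, 191 and 368 in tau animals, against 130.5, 337 and 477 in control animals. The difference was -0.67 ± 0.133. Ky, kyphoscoliosis peptidase, a Z-disc protein needed for muscle growth and junction stability in mice, had levels of 109, 177 and 423 in tau animals, against 170.1, 375 and 739 in control animals. Its difference was -0.76 ± 0.155. For both genes the groups overlap across slides and separate within each slide. Vcp, the ATPase that extracts ubiquitin-tagged proteins for degradation and is mutated in a human muscle disease with inclusion bodies, had levels of 103, 299 and 447 in tau animals, against 155, 442 and 677 in control animals. Its difference was -0.53 ± 0.113, close to equal on the 3 slides at -0.58, -0.46 and -0.56.

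Hnrnpk and Rbfox1, RNA-binding proteins of which the second controls muscle splicing, differed by -0.51 ± 0.105 and -0.57 ± 0.118. Pdzrn3, a ubiquitin ligase that acts at the neuromuscular junction, differed by -0.61 ± 0.127. Cpe, a peptidase that trims prohormones, had levels of 79.8, 255 and 372 in tau animals, against 137, 341 and 637 in control animals, a difference of -0.57 ± 0.122. Of the 3 genes higher in tau animals, Slc26a3, an anion exchanger, had levels of 79.4, 85.6 and 128 in tau animals, against 47.9, 62.5 and 109 in control animals, a difference of 0.52 ± 0.111. Plscr5, a phospholipid scramblase family member, differed by 0.53 ± 0.112. Tmem19, a membrane protein, had levels of 31.9, 43.2 and 56.4 in tau animals, against 15.5, 25.1 and 45.3 in control animals, a difference of 0.67 ± 0.143. Plscr5 and Tmem19 read 1.32 and 0.967 times the negative probe. The limma adjusted p was 0.113 for each of these 11 genes, so none passed.

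Of the 18 genes called in those 3 fits, 8 are among these 12, and Myoz3 and Clcn1 are described with their lists. Sypl, a vesicle membrane protein, had levels of 80.1, 224 and 300.0 in tau animals, against 126, 323 and 463 in control animals, with a difference of -0.52 ± 0.114 that was nearly equal on the 3 slides (-0.52, -0.52 and -0.53). Aars, alanyl-tRNA synthetase, differed by -0.50 ± 0.108 and Kpna4, an importin that carries proteins into the nucleus, by -0.48 ± 0.113. Usp2, a clock-controlled deubiquitinase, had levels of 66.4, 141 and 284 in tau animals, against 102, 270.2 and 364 in control animals, a difference of -0.65 ± 0.145. Bcl6, a transcriptional repressor, differed by -0.47 ± 0.116 and Zfand3, a zinc finger protein, by -0.46 ± 0.0993. Slc12a8, a membrane transporter, was the gene higher in tau animals, with levels of 104, 134 and 181 in tau animals, against 72.0, 95.5 and 140.0 in control animals and a difference of 0.46 ± 0.101. For each of these 7 genes the tau and control animals separated within every slide. In the fit with slide alone the limma adjusted p was 0.113 for Sypl, Aars, Usp2, Zfand3 and Slc12a8, 0.133 for Kpna4 and 0.138 for Bcl6.

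Among the myosin heavy chains, the control animals read more Myh4 and the tau animals more Myh1 and Myh2, with a wide spread; these genes are given here after their values were seen. Myh4 had levels of 5629, 14473 and 32673 in tau animals (lowest, median, highest), against 11224, 27101 and 52291 in control animals. Both tau animals were below both controls on every slide, by -0.88, -0.73 and -1.09. The difference of -0.90 ± 0.428 did not pass (limma adjusted p = 0.367).

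Myh1 had levels of 5539.8, 4884, 100.4, 1276, 5813 and 4624 in tau animals T13, T30, T14, T7, T15 and T20. In control animals C2, C30, C3, C40, C16 and C20 the levels were 1043, 675, 259, 988, 3907 and 1593. Tau animal T14 was the lowest of all 12, while 4 of the other tau animals exceeded every control. The difference of 1.16 ± 0.488 did not pass (limma adjusted p = 0.311) and was 2.56, -0.21 and 1.14 by slide. Without T14 it was 1.78 (limma adjusted p = 0.0143), without slide 2 it was 1.85 (0.0349), and in labelled females 1.76 (0.0457). In labelled males it was -0.42, and over the 35 alternatives the adjusted p ran between 0.0143 and 0.999.

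Myh2 had levels of 46.1, 192 and 1364 in tau animals, against 25.4, 45.1 and 2413 in control animals. The highest animal of all was control C16, and without regard to that animal the controls lay at or below 46.4. The difference was 1.51 ± 0.473 (limma adjusted p = 0.216). Regions of the same animal could differ as much as the groups. The 2 normal regions of C16 had 7579 and 234 for Myh1 and 4772 and 53.2 for Myh2. Those of tau animal T20 had 352 and 8897 for Myh1 and 41.6 and 1957 for Myh2. Within each of these 2 animals the region high in Myh1 was also the one high in Myh2. Myh7 had levels of 30.7, 50.8 and 205 in tau animals, against 28.9, 39.4 and 58.8 in control animals, a difference of 0.50 ± 0.213 (limma adjusted p = 0.317). Its highest value, 205, was that of T20.

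**Figure D2:**
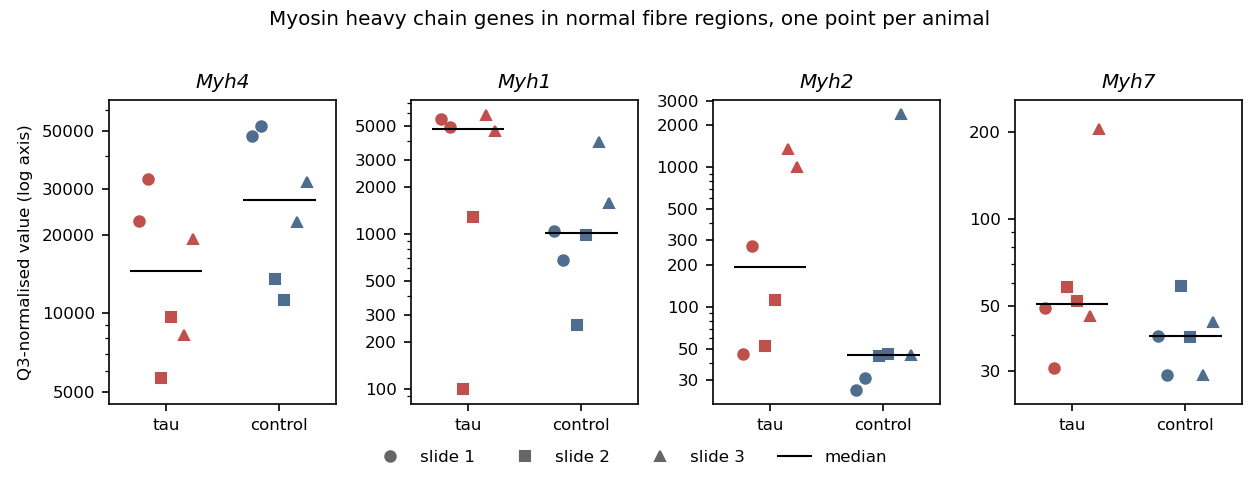
Signal scaled to the third quartile (log axis) of Myh4, Myh1, Myh2 and Myh7 in the normal regions, 1 point per animal. Tau is left and control right, colour shows the treatment and marker shape the slide. Tau animal T14 at 100.4 for Myh1 and control animal C16 at 2413 for Myh2 lie apart from their groups.

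The fast sarcomere list includes Mylk4 and the fast myosins above. Of its 19 members tested, 5 differences were above 0 and 14 below, with a median of -0.31, against 0.06 over all genes. At an unadjusted p under 0.05, 3 were higher and 4 lower, and 0 were called. Over all genes, 65.5% of differences were above 0, with 9.2% of genes higher and 4.4% lower at that p. Myoz3, a Z-disc calsarcin of fast fibres, had levels of 111, 231 and 334 in tau animals, against 159, 393 and 514 in control animals; its difference was -0.56 ± 0.125 (limma adjusted p = 0.113). Myoz1, another fast-fibre calsarcin, differed by -0.65 ± 0.198. Myl1, the fast essential light chain, ran the other way, with levels of 1073, 2333 and 2873 in tau animals, against 939, 1499 and 2233 in control animals. In the slow sarcomere list, 12 of 15 differences were above 0, with a median of 0.24, 4 higher and 0 lower at an unadjusted p under 0.05. Casq2, the slow and cardiac calsequestrin, differed by 0.60 ± 0.220 and Tnnc1, slow troponin C, by 0.36 ± 0.142. These 2 genes read 0.926 and 2.17 times the negative probe. The median member of the slow list read 1.21 times the negative probe, against 74.8 times for the fast list. The medians were -0.23 for the fast and 0.34 for the slow list with the total count as a covariate, and neither changed sign in any of 35 alternatives.

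The Z-disc, M-band and costamere list, the proteins that anchor sarcomeres and tie them to the membrane, had 15 of 43 differences above 0 and a median of -0.11. That is 34.9% above 0, against 65.5% of all genes. At an unadjusted p under 0.05, 4 members were higher and 10 lower, where 9.2% of all genes were higher and 4.4% lower. Unc45b, the chaperone that folds myosin, differed by -0.39 ± 0.0984 and was below in both tau animals of every slide. The list for excitation-contraction coupling, the release and recapture of calcium after a nerve impulse, had 7 of 30 differences above 0 (23.3%) and a median of -0.19, with 1 higher and 12 lower. Trdn, triadin, which links the release channel to its calcium store, had levels of 208, 612 and 1355 in tau animals, against 363, 1015 and 1986 in control animals. Its difference was -0.64 ± 0.162 (limma adjusted p = 0.152). Ryr1, the release channel itself, differed by -0.59 ± 0.167, Casq1, the fast calsequestrin, by -0.65 ± 0.199 and Camk2a, a calcium-activated kinase, by -0.49 ± 0.126. Camk2a was called with the labelled sex as a covariate (limma adjusted p = 0.0284) and in no other of the 35 alternatives. The Z-disc and calcium medians kept their sign in all 35 alternatives.

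Channels and pumps of the fibre membrane had a median of 0.02 (-0.03 after quantile normalisation and -0.33 with the negative probe subtracted), with 2 of 15 higher and 5 lower at an unadjusted p under 0.05. Clcn1, the chloride channel that keeps fibres from firing repeatedly, had levels of 82.9, 185 and 282 in tau animals, against 107, 254 and 414 in control animals. Its difference of -0.44 ± 0.105 did not pass (limma adjusted p = 0.133). Kcnc4, a potassium channel, differed by -0.50 ± 0.110.

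No gene of the energy supply lists was called in the fit with slide alone. Glycolysis and glycogen genes had 14 of 35 differences above 0 and a median of -0.07, with 1 higher and 8 lower at an unadjusted p under 0.05. Phka1 and Phkb, subunits of phosphorylase kinase, which starts glycogen breakdown, differed by -0.60 ± 0.147 and -0.41 ± 0.122. Pygm, muscle glycogen phosphorylase, had levels of 773, 2496 and 4541 in tau animals, against 1507, 3692 and 5706 in control animals, a difference of -0.56 ± 0.216. Gyg, glycogenin, the primer of glycogen, differed by -0.46 ± 0.134. Among adenine nucleotide and phosphocreatine genes the median was -0.10 (0.03 with the negative probe as a covariate), with 2 of 18 higher and 4 lower. Ampd1, AMP deaminase, had levels of 246, 794 and 1394 in tau animals, against 523, 1306 and 1986 in control animals, a difference of -0.72 ± 0.174 (limma adjusted p = 0.138). Nt5c1a, a cytosolic nucleotidase, differed by -0.33 ± 0.103 and Guk1, guanylate kinase, by 0.62 ± 0.148. Ckm, muscle creatine kinase, differed by -0.76 ± 0.454.

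On the mitochondrial side, oxidative phosphorylation had 34 of 52 differences above 0 (65.4%, against 65.5% of all genes) and a median of 0.11. At an unadjusted p under 0.05, 12 members were higher and 0 lower, where 9.2% of all genes were higher and 4.4% lower. Cox8b, a subunit of cytochrome oxidase, had levels of 149, 538 and 656 in tau animals, against 183, 296 and 520.1 in control animals. Its difference of 0.49 ± 0.168 did not pass (limma adjusted p = 0.228). Of the 35 alternatives it passed only without tau animal T14 (limma adjusted p = 0.0353), the animal lowest in Myh1. Ndufs4, a subunit of complex I, differed by 0.46 ± 0.146 and Uqcrc1, a core protein of complex III, by 0.44 ± 0.160. Citric acid cycle and pyruvate genes had a median of 0.11, with 3 of 26 higher and 3 lower; Got2, mitochondrial aspartate aminotransferase, differed by 0.49 ± 0.130, Pdhb, of pyruvate dehydrogenase, by 0.43 ± 0.131 and Idh2, the mitochondrial NADP-linked isocitrate dehydrogenase, by 0.66 ± 0.244. Fatty acid genes had 28 of 35 differences above 0 and a median of 0.19, with 5 higher and 0 lower. Acads, the short-chain acyl-CoA dehydrogenase, differed by 0.50 ± 0.133, Lpl, lipoprotein lipase, by 0.71 ± 0.225 and Etfb, which passes their electrons on, by 0.42 ± 0.164. The direction of these medians moved with the depth treatment. With the total count as a covariate they were 0.00 for oxidative phosphorylation, 0.04 for the citric acid cycle and -0.02 for fatty acids, and with the negative probe as a covariate 0.26, 0.21 and 0.33. With the negative probe subtracted they were -0.01, 0.04 and -0.10. Mitochondrial ribosomal proteins had a median of 0.05 (-0.01 with the total count as a covariate and -0.21 with the negative probe subtracted), with 4 of 41 higher and 0 lower. Mrpl34 and Mrps28 had all 6 tau animals above the control median, and Mrpl12 had 5.

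**Figure D3:**
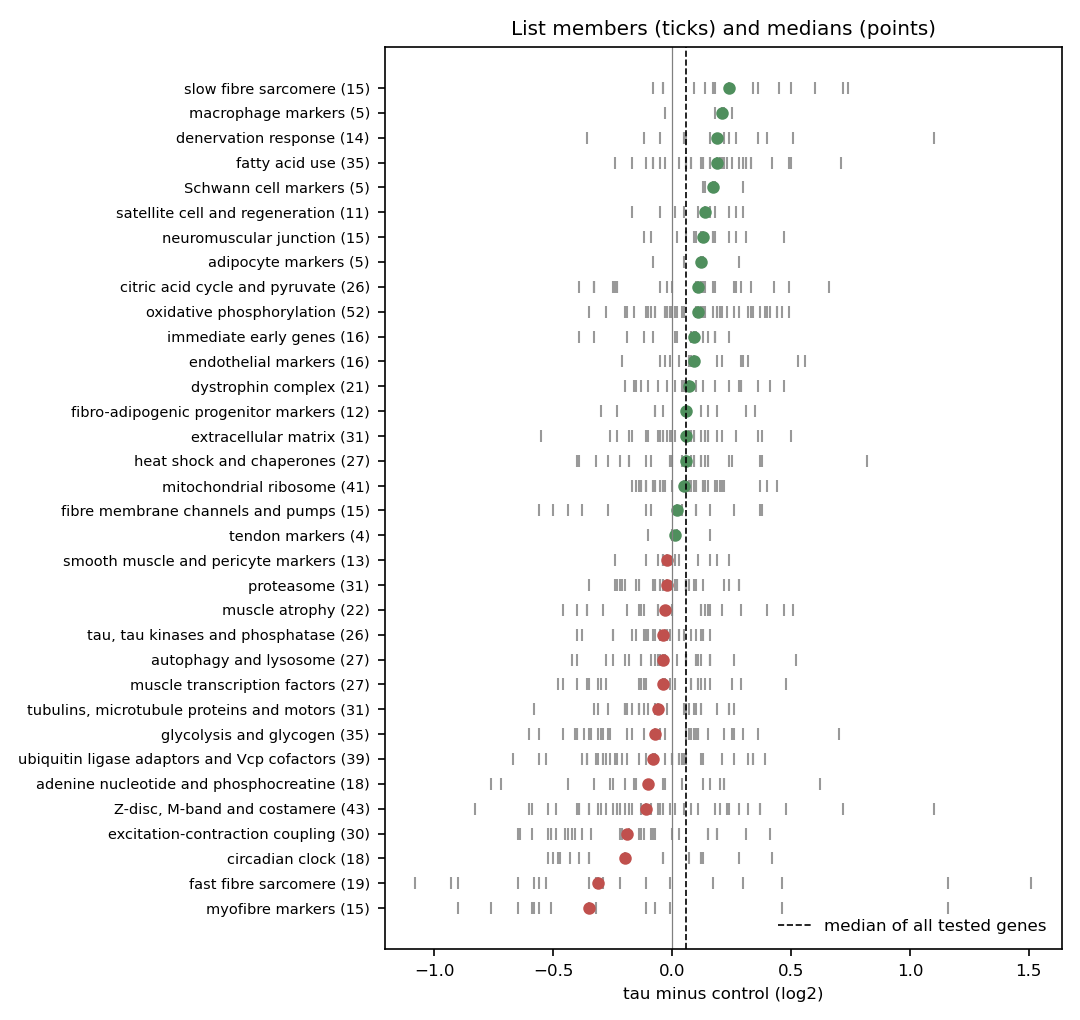
Tau minus control difference (log2) of each tested member (ticks) and the median (marker) of the gene lists in the normal regions. The fast sarcomere median is -0.31 and the slow sarcomere median 0.24, and the median over all genes is 0.06.

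The neuromuscular junction list had 13 of 15 differences above 0 (86.7%) and a median of 0.13 (-0.13 with the negative probe subtracted). Of all genes 65.5% were above 0, and of genes at 1 to 1.25 times the negative probe 77.9%. At an unadjusted p under 0.05, 2 members were higher and 0 lower, where 9.2% of all genes were higher and 4.4% lower. Besides Utrn the higher member was Prkar1a, a regulatory subunit of protein kinase A, with levels of 166, 196 and 236 in tau animals, against 148, 165 and 182 in control animals (difference 0.27 ± 0.112). Colq, the collagen tail of acetylcholinesterase, differed by 0.31 ± 0.192 and changed sign with the total count as a covariate (-0.15). In the dystrophin complex, which protects the membrane during contraction, 14 of 21 differences were above 0 (66.7%, against 65.5% of all genes), with a median of 0.07, 7 higher and 0 lower. That median was -0.02 with the total count as a covariate. Sntb2, a syntrophin, differed by 0.41 ± 0.120 and Sgcb, a sarcoglycan, by 0.28 ± 0.104. Genes known to respond to denervation had a median of 0.19, with 3 of 14 higher and 1 lower. That median was 0.05 after quantile normalisation and -0.04 with the total count as a covariate. Ankrd1, a stress-induced ankyrin protein, had levels of 20.5, 37.2 and 443 in tau animals, against 18.3, 24.1 and 30.3 in control animals. The highest value came from tau animal T15, and the difference of 1.10 ± 0.450 was -0.18 with the total count as a covariate. Ankrd1 read 0.996 times the negative probe. Mt1, metallothionein, differed by 0.51 ± 0.174, and Hdac4, a deacetylase induced by denervation in mice, by -0.36 ± 0.124. Satellite cell and regeneration genes had a median of 0.14 (-0.01 with the negative probe as a covariate), with 2 of 11 higher: Pax7, the stem cell factor, at 0.27 ± 0.113 and Sdc4, a surface proteoglycan, at 0.30 ± 0.123. Chrna1, an acetylcholine receptor subunit, differed by 0.24 ± 0.152. Members of the junction list read a median of 1.15 times the negative probe, those of the denervation list 1.27 times and those of the regeneration list 1.48 times.

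Muscle atrophy genes divided evenly, 11 above and 11 below 0, with a median of -0.03 (0.02 with the negative probe as a covariate). Trim63, the ubiquitin ligase MuRF1 of wasting muscle, had levels of 78.1, 151 and 179.7 in tau animals, against 111, 179.6 and 269 in control animals. Both tau animals were below both controls on every slide, and the difference was -0.36 ± 0.120 (limma adjusted p = 0.225). Foxo4, a transcription factor of the same programme, differed by -0.46 ± 0.125, and Cebpb, a stress-responsive factor, by 0.47 ± 0.129. Ubiquitin ligase adaptors and Vcp cofactors had 15 of 39 differences above 0 and a median of -0.08, with 2 higher and 12 lower at an unadjusted p under 0.05. Asb2, an adaptor that targets filamins in muscle, had levels of 214, 582 and 1238 in tau animals, against 399.9, 979 and 1839 in control animals. Its difference was -0.67 ± 0.198 (limma adjusted p = 0.183), and the limma adjusted p with the labelled sex was 0.00867. Klhl31, an adaptor expressed in muscle, differed by -0.56 ± 0.143. Proteasome subunits were even, with 4 of 31 higher and 4 lower: Psmd13 and Psmc2 differed by 0.28 ± 0.103 and 0.28 ± 0.108, and Psmc3 by -0.35 ± 0.112. Autophagy and lysosome genes had a median of -0.04; Ulk1, the kinase that starts autophagy, differed by -0.42 ± 0.115, Atg13, its partner, by -0.25 ± 0.104 and Ctsb, a lysosomal protease, by 0.52 ± 0.177. Heat shock and chaperone genes had a median of 0.06 (-0.12 with the total count as a covariate and -0.28 with the negative probe subtracted), with 1 of 27 higher and 3 lower, among them Dnaja2 and Dnajb6, co-chaperones of Hsp70, at -0.32 ± 0.107 and -0.27 ± 0.105.

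Mapt, the mouse gene for tau, had levels of 51.0, 65.6 and 73.3 in tau animals, against 60.9, 66.5 and 77.7 in control animals. The groups overlap almost fully, and the difference was -0.11 ± 0.104 (limma adjusted p = 0.662). Whether the mouse probes bind a human tau transcript is not stated in the labels or files used, so this does not check the labels. Tau kinases and phosphatase genes had 9 of 26 differences above 0 and a median of -0.04, with 0 higher and 4 lower at an unadjusted p under 0.05. Gsk3a, a glycogen synthase kinase, differed by -0.38 ± 0.119 and Prkaca, the catalytic subunit of protein kinase A, by -0.25 ± 0.108. Tubulins, microtubule proteins and motors had 12 of 31 above 0 and a median of -0.06, with 0 higher and 5 lower. Kif1c, a kinesin motor, had levels of 147, 662 and 1184 in tau animals, against 327, 976 and 1476 in control animals, a difference of -0.58 ± 0.161 (limma adjusted p = 0.172). Tubb4b and Tuba8, tubulins, differed by -0.33 ± 0.109 and -0.27 ± 0.112.

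Muscle transcription factors had 11 of 27 differences above 0 and a median of -0.04 (0.02 with the negative probe as a covariate), with 1 higher and 8 lower at an unadjusted p under 0.05. Sox6, which represses slow fibre genes in fast fibres, had levels of 58.5, 91.9 and 117 in tau animals, against 71.6, 130.5 and 182 in control animals. All 6 tau animals were below the control median, and the difference of -0.46 ± 0.110 did not pass (limma adjusted p = 0.133). Mef2d, a factor of muscle differentiation, differed by -0.48 ± 0.123. Vgll2, a cofactor of TEAD proteins, had levels of 63.4, 69.5 and 113 in tau animals, against 43.7, 55.2 and 72.3 in control animals (difference 0.48 ± 0.123). Circadian clock genes had 6 of 18 above 0 and a median of -0.20, with 1 higher and 8 lower. Hlf, a clock-controlled factor, had levels of 29.8, 32.3 and 33.9 in tau animals, against 33.5, 42.7 and 62.2 in control animals. Its groups barely overlap, at 1.08 times the negative probe (difference -0.47 ± 0.135). Bhlhe41, a repressor of the clock, differed by -0.50 ± 0.119 and Rora, an activator, by -0.35 ± 0.101. Arntl, the BMAL1 gene, was the 1 higher member, at 0.42 ± 0.129, and is named after its value was seen. The clock median kept its sign in all 35 alternatives; no label states the hour of collection.

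All 15 myofibre markers read at least 1.5 times the negative probe, from 32 times up to 781 times for Acta1. They were not compared with the other region types of the same muscle, so this does not test the region label. The summed level of these markers was 38779, 160395 and 272978 in tau animals (lowest, median, highest), against 83624, 209397 and 326842 in control animals, with overlap. Of them 2 of 15 differences were above 0, with a median of -0.35, 2 higher and 4 lower. Other cell types were also read: 11 of 16 endothelial, 9 of 13 smooth muscle and pericyte, 8 of 12 fibro-adipogenic, 2 of 7 Schwann cell, 2 of 6 adipocyte, 1 of 13 macrophage and 0 of 5 tendon markers in the table reached 1.5 times the negative probe. The summed endothelial level was 1044, 1206 and 1336 in tau animals, against 976, 1056 and 1257 in control animals. That of the smooth muscle list was 1063, 2056 and 2180.2 in tau animals, against 1226, 1944 and 2322 in control animals. Its top member, Des, read 24.6 times the negative probe, while Rgs5 read 5.78, Myh11 1.52 and Acta2 1.29 times. The sum is therefore weighted towards Des and is no measure of these cells alone. That of the fibro-adipogenic list was 695, 935 and 1052 in tau animals, against 609, 937 and 1206 in control animals. Each of these pairs of ranges overlaps, as do those of the Schwann, adipocyte, macrophage and tendon lists. Endothelial genes had a median difference of 0.09 (-0.03 with the total count as a covariate), with 4 of 16 higher at an unadjusted p under 0.05, among them Egfl7, a vessel growth factor, at 0.56 ± 0.177 and Kdr, the VEGF receptor, at 0.53 ± 0.173. Prx, periaxin of Schwann cells, differed by 0.30 ± 0.104 and Pi16, of fibro-adipogenic progenitors, by 0.35 ± 0.114. The part of these cells in the fibre differences was not tested.

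In the fit with slide alone, the sign of the difference varied with how far a gene read above background. Genes at or under the negative probe (307) had a median difference of 0.14, with 81.4% above 0, and those at 1 to 1.25 times (1530) had 0.11. The median was 0.06 at 1.5 to 2 times (2936 genes), 0.01 at 2 to 4 times (2338) and -0.02 at 4 to 8 times (564). Genes above 8 times the negative probe (229) had -0.17, with 28.4% above 0. With the negative probe subtracted, these 2 end classes had medians of -0.21 and -0.24, with -0.04 at 1.25 to 1.5 times. With the probe as a covariate the end classes had 0.11 and -0.02. With the total count as a covariate the class above 8 times had -0.19. The gradient thus depended on how background was treated. Some gene lists followed the gradient of the fit with slide alone. The median member read 74.8 times the negative probe in the fast sarcomere list, 6.1 times in the calcium list and 7.4 times in the glycogen list. In the slow list it read 1.21 times. Other lists did not: it read 8.12 times in oxidative phosphorylation and 8.6 times in the citric acid cycle list, both with a median difference of 0.11. Clock genes read 2.15 times, with -0.20, and fatty acid genes 2.97 times, with 0.19. The part of level in the list differences was not tested. With the negative probe subtracted from each value the median over all genes was -0.11, with 275 genes higher and 688 lower at an unadjusted p under 0.05. With quantile normalisation the split was 606 higher and 602 lower, and with regions rescaled to 1 median 588 and 605. Thus the excess of genes above 0 depended on the scaling, while the medians of the fast and slow sarcomere lists did not change sign under any of these (-0.32 and 0.19 with the probe subtracted, -0.06 and 0.14 after quantile normalisation).

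**Figure D4:**
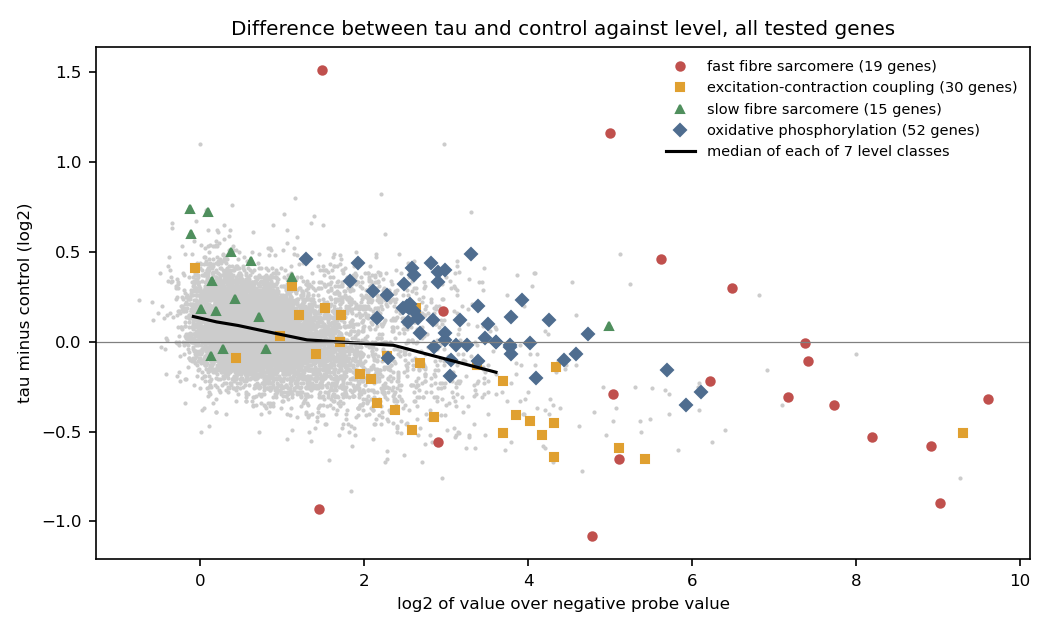
Tau minus control difference (log2) of each tested gene against its level as log2 of the ratio to the negative probe, with 4 gene lists coloured and the median of each level class drawn. Class medians run from 0.14 at or under the negative probe to -0.17 above 8 times, without subtraction of the negative probe.

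In the control animals the labelled sex and the Y-linked genes went against each other. Ddx3y, a Y-linked helicase, had levels of 20.9, 37.0 and 58.2 in tau animals labelled female (n = 4) and 45.7, 58.0 and 70.3 in those labelled male (n = 2). In control animals labelled female it had 60.9, 77.0 and 86.2, and in those labelled male 20.8, 22.8 and 42.3 (n = 3 each). Uty and Eif2s3y ordered the median of each group the same way. Ddx3y, Uty and Eif2s3y read 1.22, 0.974 and 0.869 times the negative probe, at the edge of detection. Control animals labelled female thus read higher than those labelled male, while tau animals labelled male had the higher medians, so values by labelled sex are given for the labels as they stand. The table carries tags from the depositors that mark genes by sex: 30 genes are tagged, of which 27 were tested. They were chosen by the depositors with these samples, so they are no independent evidence; 16 had a difference below 0, 11 above, and 20 an unadjusted p under 0.05 (13.6% over all genes). In 8 of them the difference had opposite signs in the labelled sexes. Amd1, the decarboxylase of polyamine synthesis, differed by -1.74 ± 0.277 in labelled females and 1.29 ± 0.217 in labelled males. Actr3b, an actin nucleation subunit, differed by -0.99 in labelled females and 0.85 in labelled males. Igfbp5, an IGF-binding protein, differed by -1.07 ± 0.150 in labelled females and 0.11 ± 0.261 in labelled males. Within labelled females limma called 2 genes higher and 8 lower (0.0982%), with 8.98% of genes at an unadjusted p under 0.05. Within labelled males it called 3 higher and 1 lower (0.0393%), with 9.26% of genes at an unadjusted p under 0.05; the difference between the labelled sexes was not tested.

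The normal regions were last set beside the other region types of the same muscles. Mylk4 differed between tau and control by -1.08 in normal regions, -1.0 in fibres with central nuclei, -0.61 in nerve bundles and -0.77 around the artery. Fhl3 differed by -0.59, -0.75, -0.54 and -0.47 in the same order. Both markers were thus lower in tau animals in each region type, with no gene called in any (the lowest limma adjusted p was 0.0674 in central nuclei, 0.300 in nerve bundles and 0.124 around the artery). At an unadjusted p under 0.05 there were 1342 genes higher and 756 lower in central nuclei, 1030 and 247 in nerve bundles, and 1005 and 238 around the artery. Utrn differed by 0.47, 0.16, 0.30 and 0.40. Sorbs2 differed by -0.83, -0.43, 0.12 and -0.49, and Tmem19 by 0.67, 0.08, 0.16 and -0.11.

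Tests of the difference between region types, over animals that had both, called 0 genes in each of 3 comparisons by limma. For normal regions against central nuclei (11 animals), 287 of 10188 genes had an unadjusted p under 0.05 (2.82%), with a lowest adjusted p of 0.998. Against nerve bundles (12 animals) there were 561 (5.51%), with 0.793, and against the artery regions (12 animals) 548 (5.38%), with 0.172. The effect on Myl2 was 0.72 in normal regions and -0.06 around the artery, a difference of 0.78 with a 95% interval of 0.50 to 1.07 (limma adjusted p = 0.172). For Mylk4 the 95% interval of the difference, unadjusted, was -0.38 to 0.28 against central nuclei and -0.75 to 0.13 against the artery, which include 0, and -0.89 to -0.06 against nerve bundles, which does not. Ddit4l, a stress-induced inhibitor of mTOR signalling, differed by -0.07 in normal regions and 0.57 around the artery. Fgf1, a growth factor, differed by 0.63 in normal regions and -0.21 in central nuclei, and Tmem79 by -0.36 and 0.30. Pla2g7, a phospholipase of macrophages, differed by -0.40 in normal regions and 0.61 in nerve bundles, and Apol6 by 0.73 and -0.38. In normal regions Fgf1 and Apol6 read 0.788 and 1.05 times the negative probe, at the edge of detection. Tmem79, Pla2g7 and Ddit4l read 1.56, 2.08 and 2.28 times.

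**Figure D5:**
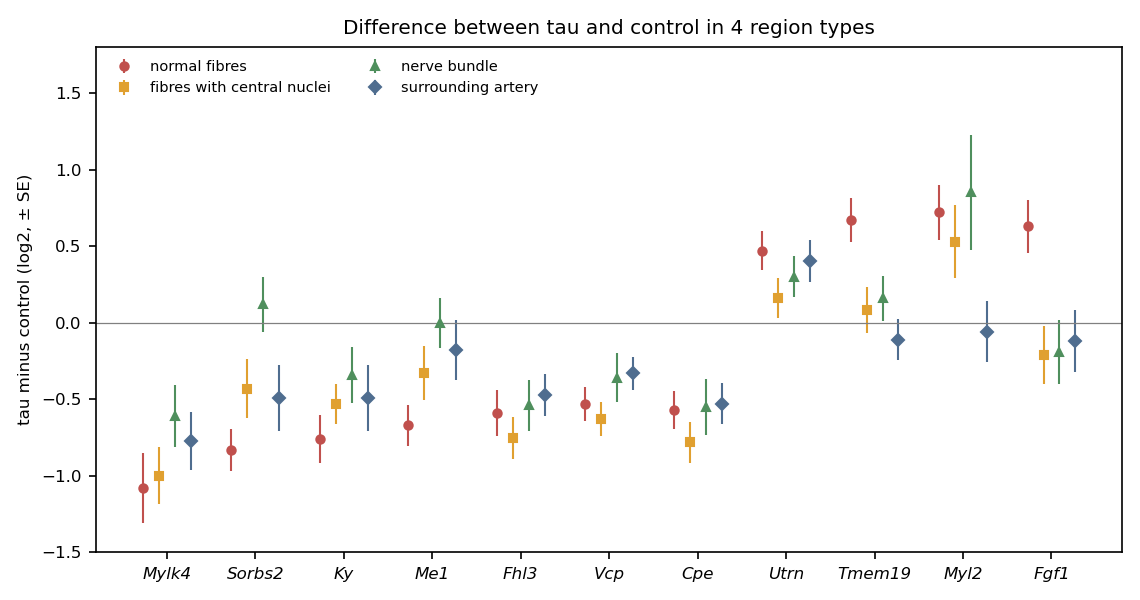
Tau minus control difference (log2, ± SE) of 11 genes in the 4 region types. Mylk4 and Fhl3 are below 0 in each region type, while Myl2 is at 0.72 in normal regions and -0.06 around the artery.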

How the data were processed

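The authors deposited 1 table of GeoMx signal for 80 regions and 10842 genes, scaled to the third quartile of each region (Q3) per the file headers. The submitters' processing notes name mm10; the aligner and counter were not given in the sources used here. Each value was a whole multiple of the smallest step of its region (tolerance 0.02, 100% of low values in every region), so relative depth was recovered from the steps. Genes at 1.5 times the negative probe or more in 10% of the 80 regions were kept, 10188 in all, leaving out 654. Signal was taken as log2(value + 1), averaged over the regions of an animal and tested with limma 3.58.1 (R 4.3.3, moderated, with a trend), slide as covariate, adjusted by Benjamini-Hochberg at 0.05. Single quantities were tested by exact permutation within slides with scipy 1.17.1. The p-values measure the spread between animals, except in the random-effect fit, which took the 20 regions as nearly independent. The fit was tested on simulated data. Genes named in the text are the 4 markers, the 3 members of each list with the smallest p, Mapt, the Y-linked genes and the 3 genes with the smallest p in each comparison of region types; others are said to be chosen after their values were seen or carry the depositors' tags. A few genes that the rule names are not reported here. The members, the 35 lists and the tests were chosen with earlier results of these data known. Alternatives covered scaling, filter, covariates, depth, background and each animal or slide left out. Gene positions came from RefSeq on GRCm38.p6, with 10164 of 10188 symbols matched.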

Additional observations from a re-analysis of the deposited data

Results flagged for a closer look

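In 9 of 238 groups of 6 animals checked, 1 animal lay apart from the others by Dixon's criterion; chance sets apart about 1 in 20. Tau animal T15 was high for Casq2 at 86.0, for Lpl at 277 and for Ankrd1 at 443. Tau animal T20 was high for Myl2 at 149. Tau animal T30 was high for Timp3 at 109, and low for Uty at 11.9 and for Tnfaip8 at 26.0. Control animal C16 was high for Myh2 at 2413 and for Idh2 at 215.7.

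Ddx3y, a Y-linked gene, differed by -1.04 between tau and control means in labelled females and by 1.04 in labelled males (log2, without slide), a gap of 2.08. Tau and control did not overlap in either labelled sex, on opposite sides; the difference between the labelled sexes was not tested.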

How the results depend on the processing

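The count of 0 called genes held in 24 of 47 other settings. Counts higher and lower in tau animals were 5 and 46 with labelled sex added, 4 and 28 with animal as random effect, 1 and 23 on recovered counts, 2 and 8 in labelled females, 3 and 1 in labelled males, 2 and 1 without slide 2, and 0 and 1 with the stricter filter or robust estimation. With 1 animal left out they ran between 0 and 8 higher and between 0 and 21 lower. With labelled sex added as well, higher counts were 16 without T7, 10 without T14, 4 without C3, 1 without C40 and 0 without each of the other 8; lower counts were 79 without T7, 34 without T14, 32 without C40, 23 without C20, 19 without C3, 14 without T15 or T30, 10 without T13, 9 without C16 or T20, 8 without C30 and 3 without C2. Comparisons of region types called 0 genes in every setting. The cause of these changes was not tested. Recovered counts, labelled sex with 1 animal left out, sex with negative probe and the fits within a labelled sex were chosen after seeing the data. A planned count model on recovered counts was not run, since the deposited unit is signal. No paired analysis was possible because no animal is in both groups and replicate numbers only name regions.

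Of 4056 gene values across the 35 alternatives, 3903 kept sign and side of the threshold, 110 passed it and 43, in 15 of 117 genes, changed sign. In labelled males these were Myh1 (-0.42), Hdac4 (0.02), Mapt (0.16), Ddx3y (0.85), Uty (0.61), Ddit4l (0.40), Actr3b (0.85), Amd1 (1.29) and Igfbp5 (0.11), and in labelled females Chrna1 (-0.03) and Eif2s3y (-1.28). With the total count as covariate they were Colq (-0.15), Ankrd1 (-0.18), Eif2s3y (-1.81), Tnfaip8 (-0.07) and Tob2 (0.13). With the negative probe subtracted they were Colq (-0.17), Chrna1 (-0.04) and Eif2s3y (-0.17). Eif2s3y was -0.10 after quantile normalisation, -0.13 with the negative probe as covariate, -0.61 with sex added to it, and -0.15 both with random effects and with animals weighted by regions. Others were Uty on recovered counts (0.01) and without slide 1 (0.17), Ddit4l without slide 1 (0.05) and without slide 2 (0.00), and Actr3b with 1 region per animal (0.07). With 1 animal left out, the ranges were -0.36 to 0.17 for Ddx3y, -0.34 to 0.23 for Uty, -0.35 to 0.63 for Eif2s3y, -0.20 to 0.07 for Ddit4l, -0.30 to 0.15 for Actr3b and -0.60 to 0.04 for Amd1. The depth difference ran between 0.78 and 1.24 (exact permutation p between 0.00926 and 0.037) and that of the negative probe between 0.08 and 0.22 (exact permutation p between 0.0185, without T30, and 0.343). The median standard error was 0.16 for genes at or under the negative probe, 0.113 at 2 to 4 times it and 0.164 above 8 times it.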

Other observations

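Extracellular matrix genes had 17 of 31 differences above 0 (54.8%, against 65.5% of all genes) and a median of 0.06, as over all genes, with 3 higher and 1 lower at an unadjusted p under 0.05 and 0 called. The median was -0.16 with the total count as a covariate, -0.32 with the negative probe subtracted, -0.02 with it as a covariate and -0.03 after quantile normalisation. Timp3, an inhibitor of matrix proteases, had levels of 62.3, 69.8 and 109 in tau animals (lowest, median, highest), against 68.7, 129 and 142 in control animals. Both tau animals were below both controls on every slide, and the difference was -0.55 ± 0.126 (limma adjusted p = 0.123). Loxl1, which cross-links elastin, had levels of 42.2, 56.8 and 97.3 in tau animals, against 30.1, 41.4 and 57.1 in control animals, and lay above both controls on every slide (0.50 ± 0.170). Tgfb1, a growth factor that drives matrix production, differed by 0.38 ± 0.122, at 1.25 times the negative probe.

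Immediate early genes had 11 of 16 differences above 0 (68.8%) and a median of 0.09, with 0 higher and 2 lower. The median was -0.15 with the total count as a covariate, -0.17 with the negative probe subtracted and -0.04 after quantile normalisation. The lower genes were Jun, a transcription factor, at -0.39 ± 0.150 and Dusp1, a phosphatase of stress kinases, at -0.33 ± 0.125. Tagged genes outside the lists included Atp1b2, a subunit of the sodium pump, with levels of 89.4, 139 and 230.1 in tau animals, against 136, 224 and 337 in control animals (-0.67 ± 0.149, limma adjusted p = 0.113), and Tob2, an antiproliferative protein, at -0.52 ± 0.203. None of these passed.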
